A study of Mus musculus with 16 samples.

Results

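Proprioceptive sensory neurons (pSN) carry signals from muscle spindles and Golgi tendon organs, the stretch and force sensors of skeletal muscle, to the spinal cord. Their cell bodies lie in dorsal root ganglia (DRG), and they are recognised by parvalbumin (*Pvalb*), the transcription factors *Etv1* and *Runx3*, and *Ntrk3*, the receptor of neurotrophin-3. The neurons described here are pSN of newborn mice that are rich in *Gabrg1*, which encodes the gamma1 subunit of the GABA-A receptor, a chloride channel opened by the transmitter GABA. They carry the working name of presumptive limb-innervating neurons, with *Efna5*, *Gda* and *Hoxa10* as further label genes.

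The study sequenced single tdTomato-positive DRG cells with CEL-Seq2, a plate method in which each mRNA molecule is tagged near its 3′ end with a unique molecular identifier (UMI). At p1 there were 6 libraries of 96 wells, and at e15.5 there were 10. All p1 libraries share a single strain label, Trpv1Cre; PvFlp; Ai65 and PvCre; Ai14, so a library may hold cells in which tdTomato needs both *Trpv1*-driven Cre and parvalbumin-driven Flp, or cells in which parvalbumin-driven Cre is enough. The e15.5 libraries carry the label PvtdTom. By the study's methods, cells came from thoracic and lumbar ganglia dissected separately, and were picked by hand at p1 and sorted by fluorescence at e15.5, whereas the labels give fluorescence sorting for both ages. The ganglion level and the mouse line of a single p1 library are not given in the labels, so a difference between libraries cannot be told apart from either. The labels do not say whether libraries came from separate animals, and the p-values below measure the spread between libraries only.

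Members were chosen by measured values. Of 576 wells at p1, 414 held at least 5000 UMIs, and 373 of these had a mitochondrial share under 20%. A UMI each of *Pvalb*, *Etv1* and *Ntrk3* left 366 wells, an *Etv1* level of at least 300 CPM (UMIs per 1000000 UMIs of the well) left 357, and a limit of 200 CPM on the glial transcripts *Apoe* and *Fabp7* together left 302 proprioceptor wells. Of these, 63 held *Gabrg1* at 50 CPM or more, and 8 of the 63 were left out because *Tox*, a marker that the study assigns to back-innervating neurons, reached 20 CPM. The remaining 55 wells are the *Gabrg1*-high pSN. The 239 proprioceptor wells with *Gabrg1* under 50 CPM, called *Gabrg1*-low, are the comparison, and 124 of these held *Tox* at 20 CPM or more. The 7 genes used in this choice are described without a test.

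The members were spread very unevenly over the libraries. Library S2 held 40 of the 55, S5 held 8, S1 and S4 held 3 each, S6 held 1 and S3 held 0. S2 thus gave 72.7% of the member wells and 76.5% of their UMIs, but 12.6% of the comparison wells. Expressed as a share of a library's proprioceptor wells, members made up 56.3% in S2 (40 of 71, exact 95% binomial interval 44.0 to 68.1). They made up 13.6% in S5 (8 of 59, 6.04 to 24.98), 6.12% in S4 (3 of 49, 1.28 to 16.9), 4.35% in S1 (3 of 69, 0.906 to 12.2) and 2.38% in S6 (1 of 42, 0.0603 to 12.6). In S3, 0 of 12 wells qualified, which allows a share of up to 25%. These intervals cover counting error only. With every well thinned to 5000 UMIs, a *Gabrg1* UMI was found in 39.4% of the proprioceptor wells of S2 and in 6.06% of those of the other libraries together.

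**Figure D1:**
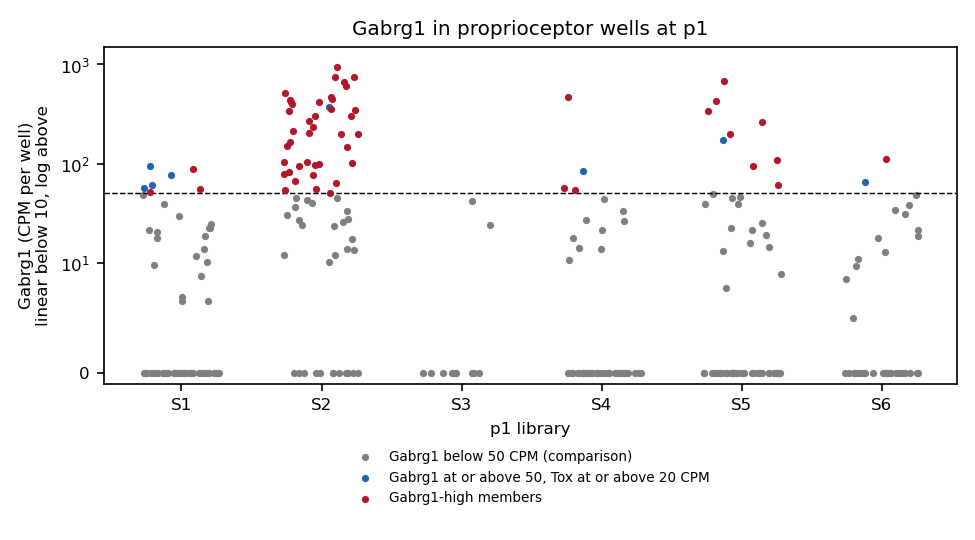
*Gabrg1* level (CPM, 1 point per well, linear below 10 and logarithmic above) in the 302 proprioceptor wells of each p1 library, with the 50 CPM limit dashed. Red points are the 55 members, blue points the 8 wells left out for *Tox* and grey points the 239 comparison wells; 40 of the red points lie in S2.

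*Gabrg1* in the members ran from 50.4 to 947 CPM around a median of 198, and from 1 to 207 UMIs around a median of 14. Members of S2 (median 208 CPM) and S5 (median 231) held more than those of S1, whose 3 wells lay between 51.1 and 87.7 CPM. The limit of 50 CPM falls within a continuous range: the 5 wells just outside it held 42.7 to 48.9 CPM and the 5 just inside 50.4 to 54.8. In 3 members a single *Gabrg1* UMI decided the choice. *Tox* was absent from all but 4 members, where the highest level was 18.0 CPM.

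The general proprioceptor genes were present in the members. *Pvalb*, of which the rule asked for a UMI, had a median of 595 CPM in members and 700 in comparison wells of all libraries pooled. *Etv1* had pooled medians of 2012 and 1389 CPM, and *Ntrk3* of 981 and 872. Pooling mixes libraries unevenly, S2 giving 72.7% of member and 12.6% of comparison wells. Within libraries, the *Pvalb* median was higher in members in S1, S2 and S4, and in S5 it was 587 against 601 CPM. The medians of *Etv1* and *Ntrk3* were higher in members in S1, S2, S4 and S5, that of *Etv1* in S5 only slightly (1205 against 1177 CPM). *Runx3*, a transcription factor needed for proprioceptor development that the rule did not use, stood at 350, 251, 218 and 230 CPM in the *Gabrg1*-high sums of S1, S2, S4 and S5, against 348, 267, 374 and 330 in the *Gabrg1*-low sums. The classes overlapped, with a log2 fold change of -0.25 ± 0.12 (SE) and an adjusted p of 0.648 (edgeR quasi-likelihood test, Benjamini-Hochberg adjustment).

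Members were also deeper wells. Their median UMI count exceeded that of the comparison wells in 4 of 4 libraries with at least 3 wells of both classes, by 39138 ± 26741 UMIs (SD, n = 4), and the number of detected genes by 1428 ± 760. The exact sign-flip test gave p = 0.125 for both, two-sided, which is the smallest that 4 libraries allow. The mitochondrial share differed by -0.134 ± 2.61 percentage points (exact p = 1.0).

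Gene expression was compared within libraries. UMIs were summed per library and class in the 4 libraries with at least 3 wells of each, and the sums were tested with the library as a block. The question was which genes accompany *Gabrg1* in these neurons. Of 11683 genes not used in the choice, 113 passed an adjusted p of 0.05 (0.967%), 77 with higher (0.659%) and 36 with lower (0.308%) levels in *Gabrg1*-high wells. Direction was shared by all 4 libraries for 46 of the 77 and 31 of the 36. Among all tested genes, 5.23% were higher and 11% lower in every library. The *Gabrg1*-high sums lay wholly above the *Gabrg1*-low sums for 1.01% of tested genes and wholly below for 2.23%. Protein-coding genes made up 91 of the calls. A further 18 were unspliced features of unconfirmed status, 16 of which lie inside a called gene. Of these, 15 lie inside *Kcnip4* on its own strand, and their reads cannot be told apart from *Kcnip4* introns. The calls rest largely on S2: without it, 10 genes were higher (0.0929%) and 5 lower (0.0464%), together 0.139% of those tested, and 12 of the 113 were still called. The fold changes of the 105 that could be tested without S2 all kept their sign, in a fit that shares 3 of its libraries with the main comparison. Without S1 there were 164 higher and 100 lower genes, without S4 36 and 11, and without S5 25 and 13. Of 45 called genes taken by the naming rule, from the lists or singled out, 8 were called whichever library was left out: *Gabra2*, *Efna5*, *Kitl*, *Cacng2*, *Alcam*, *Tnni1*, *Pde1c* and *Nr2f1*. DESeq2 called 17 of the 45, and 6 of these 8, all but *Tnni1* and *Nr2f1*.

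The block on library and the depth also bore on the counts. Without the block 0 genes passed in edgeR (551 at an unadjusted p under 0.05), and DESeq2 with the block called 26 higher and 3 lower. With all wells thinned to 5000 UMIs, 3339 genes could be tested, of which 4 were higher and 4 lower. Of 46 calls tested at that depth, 44 kept their sign and 4 were still called.

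The gene with the closest tie to *Gabrg1* in the genome was among the clearest differences. *Gabra2*, which encodes the alpha2 subunit of the GABA-A receptor, lies next to *Gabrg1* in a cluster of receptor subunit genes on chromosome 5. By GENCODE M21 on GRCm38, *Gabrg1* spans 70751047 to 70842617 and *Gabra2* spans 70957597 to 71095849. Both are on the minus strand, with 114979 bases between them. *Gabra4* (71569749 to 71658308, minus strand) and *Gabrb1* (71658113 to 72149037, plus strand) follow. The promoters of the neighbours and of *Efna5* are printed because these genes carry the comparison. They run from 250 bases before to 50 after the start in RefSeq (GRCm38.p6), at chr5:70842568-70842867, chr5:71095800-71096099 and chr17:62881268-62881567, all on the minus strand and written 5′ to 3′. Capitals mark TAATTA, the core sequence bound by many homeodomain proteins.
Gabrg1: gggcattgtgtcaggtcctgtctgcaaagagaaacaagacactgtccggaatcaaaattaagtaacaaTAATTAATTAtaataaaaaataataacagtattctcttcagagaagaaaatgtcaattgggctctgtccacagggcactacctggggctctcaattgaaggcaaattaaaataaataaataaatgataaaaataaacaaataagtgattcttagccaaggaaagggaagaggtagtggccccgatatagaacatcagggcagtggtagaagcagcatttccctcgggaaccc
Gabra2: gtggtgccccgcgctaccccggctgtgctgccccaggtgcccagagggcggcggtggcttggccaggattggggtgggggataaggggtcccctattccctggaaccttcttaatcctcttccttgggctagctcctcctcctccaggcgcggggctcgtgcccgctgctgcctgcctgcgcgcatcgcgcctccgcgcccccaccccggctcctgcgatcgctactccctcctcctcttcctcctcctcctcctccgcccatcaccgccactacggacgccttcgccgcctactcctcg
Efna5: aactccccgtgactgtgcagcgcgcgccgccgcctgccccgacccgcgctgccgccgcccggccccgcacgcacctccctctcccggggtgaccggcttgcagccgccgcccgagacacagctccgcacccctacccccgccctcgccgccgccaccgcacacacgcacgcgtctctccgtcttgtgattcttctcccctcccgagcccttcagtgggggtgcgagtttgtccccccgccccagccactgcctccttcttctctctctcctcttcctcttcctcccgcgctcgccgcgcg
The *Gabrg1* window holds 2 overlapping TAATTA matches and the others hold 0. Of 32544 promoter windows of this length, 5.29% hold at least 1. AGGTCA, the half-site recognised by COUP-TF nuclear receptors such as *Nr2f1* and *Nr2f2*, was searched on both strands and is in none of the 3 windows, against 16.2% of all windows.

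*Gabra2* stood at 265, 507, 307 and 344 CPM in the *Gabrg1*-high sums of S1, S2, S4 and S5, and at 142, 188, 109 and 183 CPM in the *Gabrg1*-low sums. Every *Gabrg1*-high sum was above every *Gabrg1*-low sum. The log2 fold change was 1.18 ± 0.13 (SE), with an adjusted p of 8.31e-07, and the call held without any single library and with all wells thinned to 5000 UMIs (1.04, adjusted p = 0.0137). All 55 members held a *Gabra2* UMI, as did 89.5% of the comparison wells (214 of 239), which were less deep. With wells thinned to 5000 UMIs the shares were 87.3% (48 of 55, exact 95% interval 75.5 to 94.7) and 47.3% (113 of 239, 40.8 to 53.8). These shares pool libraries, S2 giving 72.7% of member and 12.6% of comparison wells, and the intervals cover counting error only. In S2 alone the median level was 486 CPM in members and 149 in comparison wells, and in S5 400 and 197. The level in single members ran from 101 to 2788 CPM. Among the 19 GABA-A receptor subunits, 6 could be tested, of which *Gabra2* was higher and 0 lower (median log2 fold change of the 6 0.51, of all tested genes -0.01). *Gabrb1*, the beta1 subunit of the same cluster, was higher in each library, at 13.7, 36.0, 48.4 and 44.6 against 10.5, 21.4, 5.23 and 16.9 CPM, but did not pass (1.12, adjusted p = 0.0562). *Gabra5* (alpha5) also did not (0.67, adjusted p = 0.0597).

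*Efna5* encodes ephrin-A5, a membrane-anchored ligand that steers axons by engaging EphA receptors on other cells. Its level was 22.9, 171, 56.5 and 171 CPM in the *Gabrg1*-high sums of S1, S2, S4 and S5 against 14.6, 46.1, 21.9 and 41.5 CPM in the *Gabrg1*-low sums (log2 fold change 1.75 ± 0.19, adjusted p = 8.31e-07). The difference was in the same direction in 4 of 4 libraries, but the levels of the classes overlapped across libraries, and the *Gabrg1*-high sum of S1 was below the *Gabrg1*-low sums of S2 and S5. Without S2 the log2 fold change was 1.62 (adjusted p = 0.0296). Of the 14 ephrin-A ligands and EphA receptors, 9 could be tested, and *Efna5* was the 1 called (median log2 fold change of the 9 -0.20). The receptors *Epha3*, *Epha4*, *Epha5* and *Epha7* had fold changes of -0.32, -0.20, -0.50 and -0.46, with adjusted p-values from 0.595 to 0.936. *Efnb2*, an ephrin-B ligand, was at 0.26 (adjusted p = 0.75), and 0 of 5 tested ephrin-B and EphB genes were called.

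The other label genes did not behave alike. *Gda*, which encodes the purine enzyme guanine deaminase, was at 206, 178 and 251 CPM in the *Gabrg1*-high sums of S2, S4 and S5 against 97.6, 30.0 and 94.9 CPM (log2 fold change 1.29 ± 0.20, adjusted p = 0.000388). In S1 it was at 6.86 against 12.9 CPM, the opposite order, without S2 the adjusted p was 0.110, and DESeq2 did not call it. *Hoxa10*, a posterior Hox gene, did not separate the classes: 4.57, 47.6, 0 and 28.9 CPM stood against 2.26, 44.7, 6.66 and 38.2 CPM in S1, S2, S4 and S5 (log2 fold change -0.08 ± 0.25, adjusted p = 0.993). Both classes were high in S2 and S5 and low in S1 and S4, so that its level differed more between libraries than between classes. The 0 of S4 is a weak measure, since that sum held 123869 UMIs in 3 wells and 1 UMI in it makes 8.07 CPM. Because *Hoxa10* did not separate the classes, the wells are named here by *Gabrg1* alone. Of the members, 51 held a UMI of *Efna5*, 53 of *Gda* and 41 of *Hoxa10*, and 38 of the 55 held all 3. These counts are at full depth, and members were the deeper wells. Median levels of the 3 genes in S2 were 139, 163 and 38.7 CPM in members and 31.8, 53.4 and 42.5 CPM in comparison wells. Most comparison wells of S2 thus also held each gene. Over the comparison wells of all libraries the medians were 10.1, 0 and 0 CPM. At a common depth of 5000 UMIs, *Efna5* was found in 52.5% of the members of S2 (21 of 40, exact 95% interval 36.1 to 68.5) and 20% of its comparison wells (6 of 30, 7.71 to 38.6). In the other libraries these shares were 13.3% (2 of 15, 1.66 to 40.5) and 6.70% (14 of 209, 3.71 to 10.98). A list of 4 distal hindlimb proprioceptor genes held *Cdh13*, *Vstm2b*, *Sema5a* and *Crtac1*. All 4 were tested and 0 were called, 3 having a fitted change above 0 (median log2 fold change 0.37). Their summed level was 162, 882, 581 and 788 CPM in *Gabrg1*-high and 584, 400, 609 and 541 CPM in *Gabrg1*-low sums of S1, S2, S4 and S5. *Chodl* (chondrolectin), a further gene that the study names for limb neurons, was too low to test and was found in 20 members. Its median was 0 CPM in both classes. The upper quartile was 23.1 CPM in members and 0 in comparison wells, and the highest well held 402 and 884 CPM. *C1ql2*, which the study assigns to abdominal neurons, was also too low to test, at 22.9, 2.31, 0 and 5.25 CPM in the *Gabrg1*-high sums. The median of *C1ql2* was 0 CPM in both classes, and the highest well held 55.5 CPM among members and 75.2 among comparison wells.

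*Hoxc10*, which the study takes as a gene of lumbar identity and used to check lumbar origin at p1, had the same order of libraries. It was high in S2 and S5 and low in S1 and S4. Most members thus came from libraries high in *Hoxc10*, but the 3 of S1 and the 3 of S4 did not. The ganglion level of these wells was not tested. *Hoxc10* was at 0, 46.7, 0 and 30.2 CPM in *Gabrg1*-high and 5.82, 64.1, 15.2 and 66.7 CPM in *Gabrg1*-low sums (log2 fold change -0.81, adjusted p = 0.155). Each 0 comes from 3 wells, and in S4 1 UMI makes 8.07 CPM. In S3 and S6, which were not in the fit and held few or no members, *Hoxc10* was at 38.1 and 75.7 CPM in the *Gabrg1*-low sums. Of 16 genes of Hox groups 9 to 13, 6 could be tested and 0 were called (median log2 fold change -0.23). Among 15 tested genes of groups 1 to 8, *Hoxa7* was higher, at 171, 187, 371 and 257 against 148, 151, 204 and 132 CPM (0.59 ± 0.14, adjusted p = 0.0221). That call was lost without S2, S4 or S5 and in DESeq2 (adjusted p = 0.153).

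**Figure D2:**
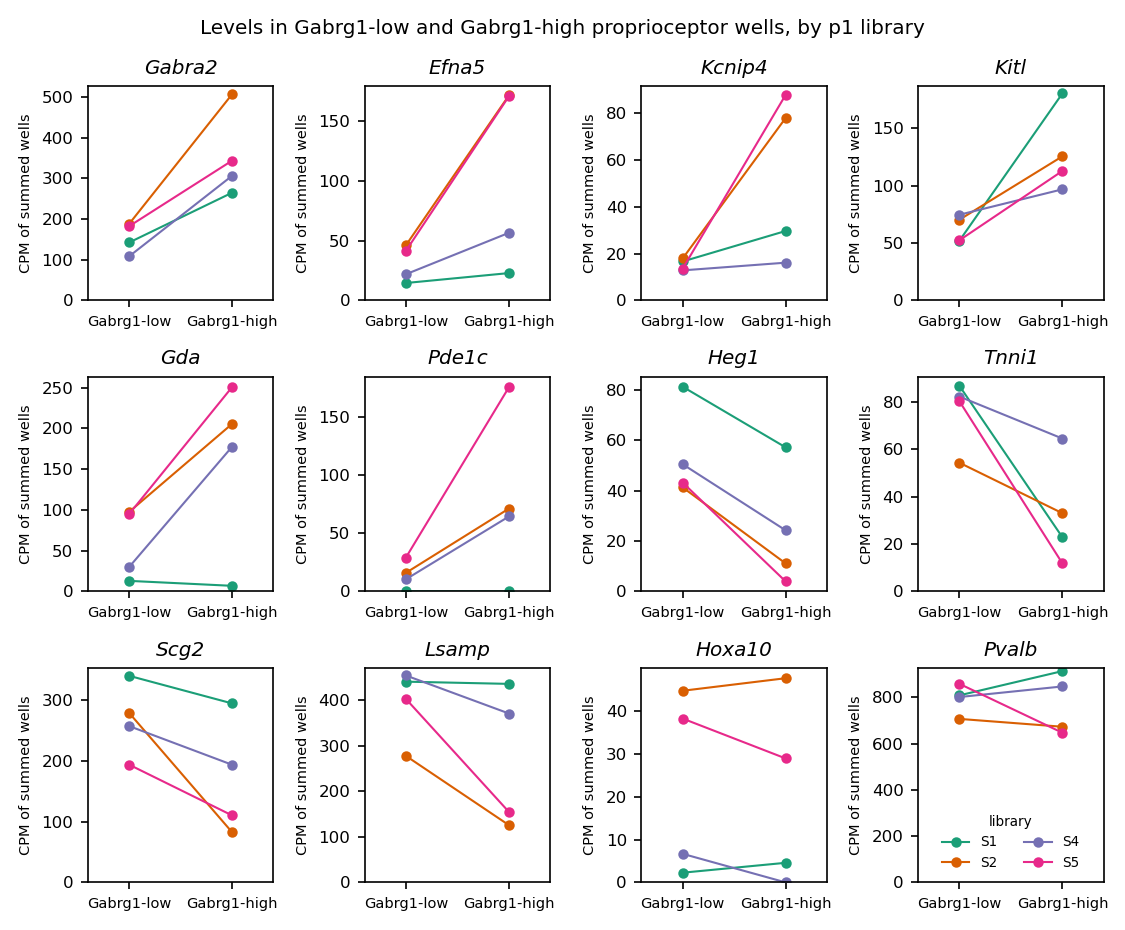
Level (CPM of the summed wells, axes from 0) of 12 genes in *Gabrg1*-low and *Gabrg1*-high proprioceptor wells of the 4 libraries with at least 3 wells of each class, 1 line per library. *Gabra2* and *Kitl* are higher in *Gabrg1*-high sums of all 4 libraries and *Heg1* is lower, whereas *Hoxa10* and *Pvalb* show no common direction.

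Cell adhesion genes were examined singly and by family. *Alcam*, an immunoglobulin-type adhesion molecule of growing axons, was at 487, 893, 589 and 983 against 303, 584, 430 and 524 CPM (log2 fold change 0.71 ± 0.11, adjusted p = 0.000321). *Ncam1*, the neural cell adhesion molecule, was at 898, 814, 573 and 864 against 612, 517, 512 and 412 CPM (0.68 ± 0.12, adjusted p = 0.0017). *B3gat1*, whose enzyme makes the HNK-1 carbohydrate carried by neural adhesion molecules, was at 4.57, 37.2, 24.2 and 73.5 against 2.59, 12.1, 1.90 and 27.2 CPM (1.57 ± 0.28, adjusted p = 0.00211). For *Alcam* the call held without S2 (adjusted p = 0.0279), and for *Ncam1* and *B3gat1* it was lost; that of *B3gat1* was also lost without S5. Among non-clustered protocadherins, homophilic adhesion molecules of neurons, 3 of 9 tested genes were higher and 0 lower (median log2 fold change 0.37). They were *Pcdh19* (0.86 ± 0.13), *Pcdh17* (0.96 ± 0.19) and *Pcdh11x* (0.74 ± 0.15). *Pcdh17* was called without S2 (adjusted p = 0.0279) but not without S4, and without S5 its log2 fold change fell to 0.61 (adjusted p = 0.494). *Pcdh19* was not called without S2 (adjusted p = 0.146). *Pcdh11x* stood at 208 against 217 CPM in S1, and was not called without S2 (adjusted p = 0.706), S4 or S5. In DESeq2, *Pcdh19* was called and the other two were not. *Cntn4*, a contactin, was higher as 1 of 10 tested in its family (1.03 ± 0.25, adjusted p = 0.0341), but not in S1. *Lsamp*, an IgLON adhesion molecule, was lower, at 436, 126, 371 and 155 against 441, 278, 455 and 403 CPM (-0.72 ± 0.16, adjusted p = 0.0187). *Lsamp* was nearly equal between the classes in S1. The calls of *Cntn4* and *Lsamp* were lost without S2, S4 or S5 and in DESeq2. None of 10 tested cadherins passed. In the guidance families, *Sema3d*, a secreted semaphorin, was the 1 called of 24 semaphorins, plexins and neuropilins (0.75 ± 0.18, adjusted p = 0.0378). Its log2 ratio was 1.66 in S5 and 0.24, 0.41 and 0.18 in S1, S2 and S4. Without S5 the log2 fold change was 0.32, and the gene was called neither then nor without S2 or S4. In DESeq2 its adjusted p was 0.597. Among 9 Slit, Robo and netrin genes, 0 were called.

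Few genes of the ion channel and glutamate receptor lists were called. Among voltage-gated calcium channel subunits, 1 of 16 tested genes was higher, *Cacng2*, which encodes stargazin, a partner of AMPA-type glutamate receptors. It was at 101, 85.7, 88.8 and 81.4 against 52.6, 39.8, 49.97 and 28.2 CPM (log2 fold change 1.16 ± 0.17, adjusted p = 0.000181), with no overlap of the classes, and was called without S2 as well (adjusted p = 0.0424). *Gria1*, an AMPA receptor subunit, was lower, at 6.86, 23.6, 8.07 and 13.1 against 31.7, 26.2, 63.3 and 62.4 CPM (-1.15 ± 0.29, adjusted p = 0.0474), and was the 1 called of 12 tested ionotropic glutamate receptor subunits. Without S2 its log2 fold change was -2.26, and it was not called without S4 or S5. *Kcnq3*, a subunit of the M-type potassium channel, was lower (-0.63 ± 0.14, adjusted p = 0.0161) as 1 of 24 tested potassium channel genes, but not called without S2 or S4. None of 12 tested sodium channel genes and none of 8 HCN and two-pore potassium channel genes passed. Outside these lists, *Kcnip4*, a calcium-binding partner of Kv4 potassium channels, was at 29.7, 78.1, 16.1 and 88.0 against 16.7, 18.0, 12.8 and 13.6 CPM (log2 fold change 1.92 ± 0.26, adjusted p = 5.71e-05). The excess was large in S2 and S5 and small in S4, and without S2 the adjusted p was 0.1. *Pde1a*, a calmodulin-dependent phosphodiesterase, was higher (1.99 ± 0.37), was too low to test without S2 and was not called without S5 (adjusted p = 0.306). *Adcy5*, an adenylyl cyclase, was lower (-1.36 ± 0.30, adjusted p = 0.0152). Without S2 its log2 fold change was -0.81 (adjusted p = 0.873), and it was not called without S4. DESeq2 called neither *Gria1*, *Kcnq3* nor *Adcy5*.

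Signalling genes included *Kitl*, the ligand of the receptor Kit, at 181, 126, 96.9 and 113 against 52.1, 70.4, 74.7 and 52.5 CPM (log2 fold change 1.14 ± 0.17, adjusted p = 0.000181). All 4 *Gabrg1*-high sums lay above all *Gabrg1*-low sums, and the call held without S2 (1.30, adjusted p = 0.0268). *Pappa2*, a protease of insulin-like growth factor binding proteins, was at 68.6, 159, 88.8 and 210 against 52.4, 62.1, 51.9 and 89.3 CPM (1.08 ± 0.16, adjusted p = 0.000167), but was not called without S2 (adjusted p = 0.146). *Lrp1b*, a receptor of the LDL receptor family, was higher (1.04 ± 0.17, adjusted p = 0.000886). Without S2 it was not called (adjusted p = 0.0723), and with wells thinned to 5000 UMIs its log2 fold change was -0.0369. *Anks1b* (0.98), the metallothionein *Mt1* (0.86) and the transcription factor *Etv6* (1.23) were also higher in 4 of 4 libraries, and none of these 3 was called without S2.

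Genes lower in the members included *Heg1*, a gene known as a marker of spindle afferents, at 57.1, 11.1, 24.2 and 3.94 against 81.2, 41.3, 50.4 and 43.2 CPM (log2 fold change -1.54 ± 0.28, adjusted p = 0.00238). *Pou4f3*, a transcription factor known as a marker of tendon organ afferents, was lower in the fit (-1.07 ± 0.26, adjusted p = 0.0399), though in S4 it stood at 48.4 against 24.7 CPM. *Nxph1* (neurexophilin-1), a ligand of neurexins and an afferent marker, was higher, at 0, 37.0, 8.07 and 22.3 against 4.69, 4.85, 0.476 and 1.66 CPM (2.41 ± 0.50, adjusted p = 0.00943). Without S2, *Heg1* (adjusted p = 0.431) and *Pou4f3* (-0.60) were not called and *Nxph1* was too low to test. *Heg1* was also not called without S4, *Pou4f3* without S5, and *Nxph1* without S4 or S5. DESeq2 called *Heg1* alone of the 3. These 3 are the called genes among 4 tested spindle and tendon organ markers.

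Of 21 tested genes of a list of synaptic vesicle and release genes, 0 were called (median log2 fold change 0.05). *Scg2* (secretogranin II), a protein of dense-core vesicles that is not on that list, was lower, at 295, 82.5, 194 and 110 against 340, 279, 257 and 194 CPM (log2 fold change -0.88 ± 0.18, adjusted p = 0.00928). Without S2 its log2 fold change was -0.41 (adjusted p = 0.819), and it was also not called without S4 or in DESeq2 (adjusted p = 0.327). *Syt17* (-2.37 ± 0.45), *Rph3a* (rabphilin, -1.0 ± 0.21) and *Sh3gl2* (endophilin A1, -0.68 ± 0.15) were also lower in 4 of 4 libraries. Other genes lower in all 4 libraries were *Wls*, needed for Wnt secretion (-0.70 ± 0.15), the proteoglycan gene *Gpc6* (-1.54 ± 0.30), *Scara3* (-3.33 ± 0.62), *Tmem132a* (-1.84 ± 0.38) and *Ripor2* (-1.92 ± 0.38). None of these 8 was called without S2, and DESeq2 called *Scara3* alone of them. *Scara3* rests on 1, 3, 1 and 0 UMIs in the *Gabrg1*-high sums of S1, S2, S4 and S5. In S4 it was nearly equal between the classes, at 8.07 against 9.04 CPM. For *Wls* the log2 fold change without S5 was -0.47 (adjusted p = 0.251). *Tnni1*, the slow skeletal troponin I, was at 22.9, 33.0, 64.6 and 11.8 against 86.8, 54.4, 82.3 and 80.3 CPM (-1.31 ± 0.24, adjusted p = 0.00289). It was called without each library in turn but not in DESeq2 (adjusted p = 0.0524), and its log2 fold change was 0.023 with wells thinned to 5000 UMIs. *Myom3*, a muscle M-band protein, was lower as well (-1.92 ± 0.40, adjusted p = 0.0109), but not called without S2, S4 or S5 or in DESeq2. The muscle genes *Myh3* and *Tnnt3* were at 0 in the *Gabrg1*-high sums of these 4 libraries.

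Some of the largest differences fell outside the rule for naming genes, and they were singled out after their values were seen. *Pde1c*, another calmodulin-dependent phosphodiesterase, had the smallest p among genes not used in the choice, at 71.4, 64.6 and 176 against 16.02, 10.5 and 29.2 CPM in S2, S4 and S5 (log2 fold change 2.43 ± 0.23, adjusted p = 1.44e-07). In S1 it was at 0 against 0.162 CPM. The orphan nuclear receptor gene *Nr2f1* was at 153, 153 and 276 against 22.3, 20.5 and 32.5 CPM in the same 3 libraries (2.63 ± 0.27, adjusted p = 8.31e-07), and at 0 against 8.57 CPM in S1. DESeq2 gave *Nr2f1* 2.06 ± 1.14 and did not call it (adjusted p = 1.0). Its relative *Nr2f2* was higher in S2, S4 and S5 (1.28 ± 0.26, adjusted p = 0.00955) and lower in S1, at 6.86 against 18.0 CPM. *Nr2f2* was not called without S2, S4 or S5, its log2 fold change without S5 being 0.72. *Brinp3* (3.0 ± 0.44) and the neuropeptide gene *Vip* (1.88 ± 0.30) were also called, and both were at 0 in the *Gabrg1*-high sum of S1. Without S2 both were too low to test, as was *Vip* without S5. DESeq2 called *Pde1c* but not *Nr2f2* (adjusted p = 0.986), *Brinp3* (adjusted p = 1.0) or *Vip* (adjusted p = 0.0844). In the sum of the 3 members of S1, a count of 0 allows a level of up to 6.86 CPM (3 UMIs), and their comparison wells were also low in *Pde1c* and *Vip*. *Pde1c* was found in 38 and *Nr2f1* in 39 of the 55 members.

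Transcripts of other cell types were looked at in both classes. Of the list of 9 nociceptor markers, 5 could be tested and 0 were called, but the median log2 fold change of the 5 was 1.16. Their summed level ran from 13.7 to 418 CPM in the *Gabrg1*-high and from 55.1 to 87.4 CPM in the *Gabrg1*-low sums, and 0 of the 9 were absent from the *Gabrg1*-high sums. *Tac1*, the substance P precursor, was at 9.14, 194, 24.2 and 159 against 51.1, 78.2, 18.1 and 16.9 CPM in S1, S2, S4 and S5 (1.33 ± 0.35, adjusted p = 0.0597). It was higher in S2 and S5, nearly equal in S4 and lower in S1, and without S5 the log2 fold change was 0.53. Satellite glia and Schwann markers summed to 80.0 to 252 against 138 to 281 CPM. Mesenchymal markers summed to 22.9 to 264 against 78.2 to 313 CPM, with *Lum* at 0 in the *Gabrg1*-high sums. Blood, endothelial and muscle markers summed to 14.6 to 30.2 against 13.9 to 1101 CPM, the highest value being that of the *Gabrg1*-low sum of S5. Wells with at least 100 CPM of 4 nociceptor genes together numbered 2 among members and 8 among comparison wells, and wells with as much haemoglobin transcript 1 and 15. With such wells left out, a setting chosen after seeing the data, 83 genes were higher and 41 lower, and 99 of the 112 p1 calls tested were kept. In 14 tested immediate early and stress genes, which respond to dissociation, 0 were called (median log2 fold change -0.23).

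Since *Tox* separates the classes by construction, members were also set against the 2 kinds of comparison well. Against wells with *Tox* under 20 CPM, 51 genes were higher (0.518%) and 35 lower (0.355%), together 0.873%. Of the 113 calls, 103 could be tested there and 53 were kept. *Gabra2* (1.02), *Efna5* (1.43), *Kcnip4* (1.47), *Alcam* (0.76) and *Cacng2* (1.13) were among them, whereas *Ncam1* (0.26, adjusted p = 0.56), *Tnni1* (-0.70, adjusted p = 0.326) and *Wls* (-0.32, adjusted p = 0.453) were not called. Against wells with *Tox* at or above 20 CPM, a setting chosen after seeing the data, 96 were higher (0.983%) and 59 lower (0.604%), together 1.59%. Of the 113 calls, 90 could be tested there and 66 were kept. In S2 there were 5 such comparison wells. The difference between these comparisons was not tested.

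**Figure D3:**
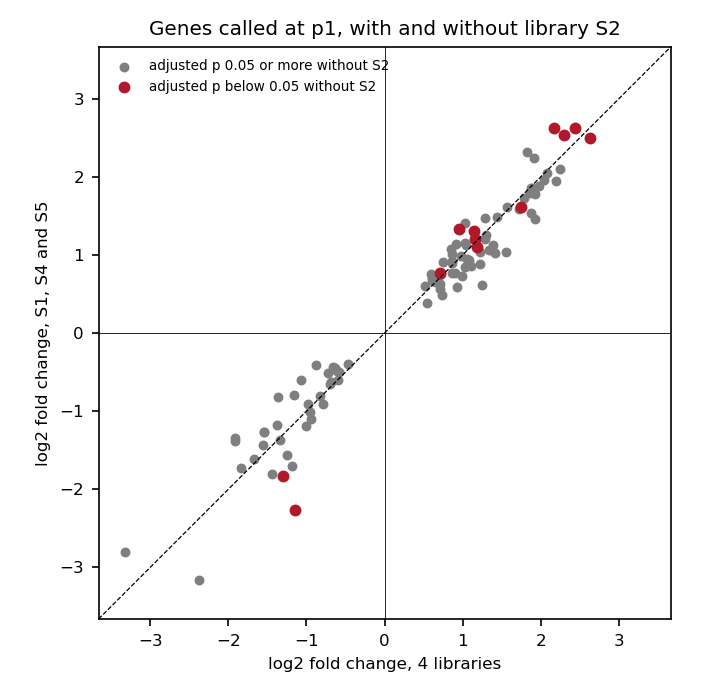
Log2 fold change of each gene called at p1 in the fit of 4 libraries (horizontal axis) and in the fit of S1, S4 and S5 without S2 (vertical axis), 1 point per gene, for the 105 genes that could be tested in both. Points follow the dashed line of equality, all with the same sign, and the 12 red points are the genes still called without S2.

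The same choice of wells at e15.5 gave an embryonic counterpart in samples that the p1 rule did not use. Of 284 proprioceptor wells, 22 were *Gabrg1*-high with low *Tox* and 255 *Gabrg1*-low. Libraries S7, S8 and S9 of that age, with 5, 4 and 10 such wells, entered the fit, in which 24 of 11129 genes were higher (0.216%) and 37 lower (0.332%), together 0.548%. Of the 86 p1 calls tested there, 73 had the same sign, and 12 were called in the same direction. The *Gabrg1*-high wells of S7 stood apart, with a median of 28113 UMIs and a mitochondrial share of 0.431%, against 133161 UMIs and 4.65% in its *Gabrg1*-low wells. They also held 508 CPM of haemoglobin transcripts against 60.2. Without S7, 173 genes were higher (1.4%) and 126 lower (1.02%), together 2.42%, and 47 of the 105 p1 calls tested were called in the same direction, although that fit rests on 2 libraries.

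*Gabra2* was again higher at e15.5, at 59.8, 105 and 151 CPM in S7, S8 and S9 against 24.4, 20.02 and 32.5 CPM (log2 fold change 2.08 ± 0.26, adjusted p = 0.0085). *Kcnip4* (3.46, adjusted p = 0.0371), *Cacng2* (1.75, adjusted p = 0.0188), *Nr2f2* (3.32, adjusted p = 0.0147) and *Brinp3* (3.12, adjusted p = 0.00583) were higher and *Rph3a* was lower (-2.90, adjusted p = 0.0242). *Efna5* was not called, at 95.7, 12.9 and 30.7 against 44.2, 46.3 and 27.4 CPM (-0.07 ± 0.41, adjusted p = 0.999), and *Gda* was not called either (0.24, adjusted p = 0.993). The difference between the ages did not pass for either gene (1.82, adjusted p = 0.109, and 1.11, adjusted p = 0.912).

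In the test of the difference between the ages, 20 of 13288 genes passed (0.151%), 16 with a higher change at p1 (0.12%) and 4 with a lower one (0.0301%). *Kitl* was the 1 p1 call among them: it was higher in the p1 members, but at e15.5 it stood at 17.9, 40.7 and 81.8 against 107, 124 and 110 CPM, below the comparison in all 3 libraries (difference of log2 fold changes 2.22 ± 0.35, adjusted p = 0.00925). The e15.5 change of *Kitl* alone was not called (log2 fold change -1.12, adjusted p = 0.245, and -0.82, adjusted p = 0.159, without S7). *Syt2*, a calcium sensor of fast transmitter release, was at 484, 407, 484 and 466.1 against 341, 405, 365 and 350 CPM at p1 (0.35, adjusted p = 0.234) and at 17.9, 17.2 and 11.1 against 37.6, 50.9 and 55.0 CPM at e15.5 (-1.88, adjusted p = 0.0391). Its difference between the ages was 2.27 ± 0.34 (adjusted p = 0.00664). The strain label and the way of picking cells differ between the ages and cannot be told apart from age.

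**Figure D4:**
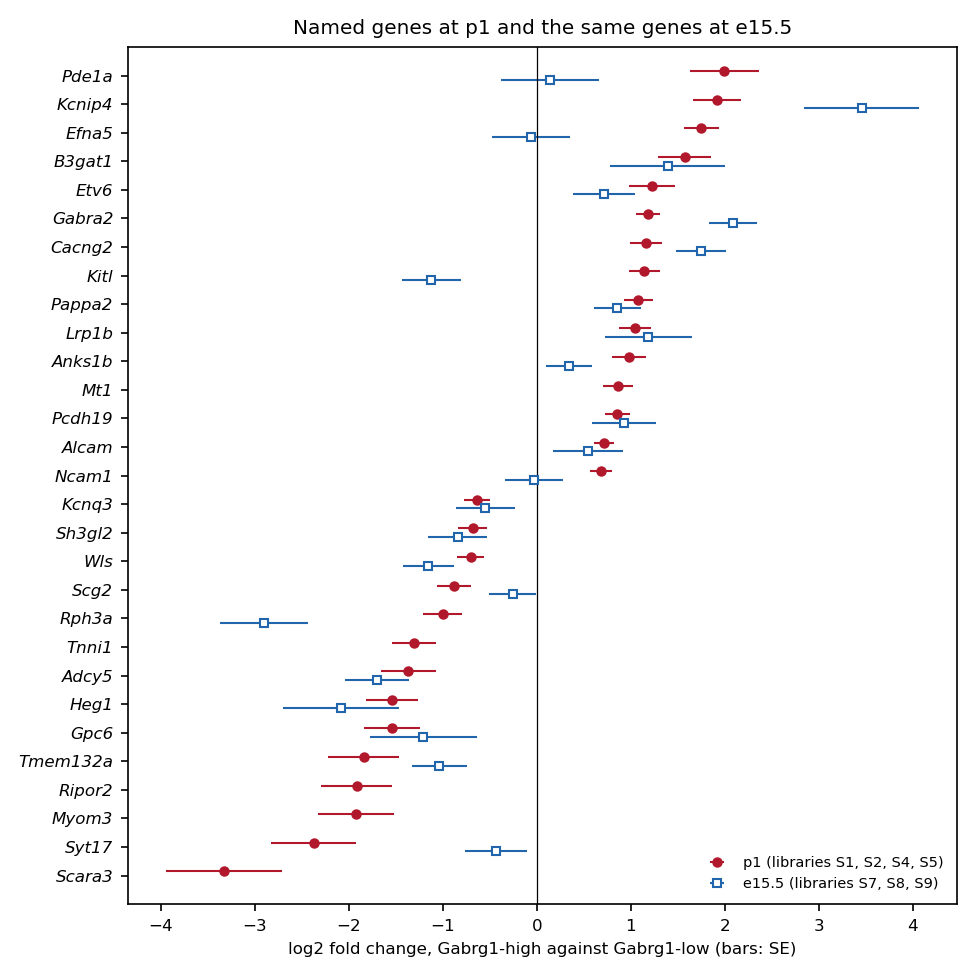
Log2 fold change of *Gabrg1*-high against *Gabrg1*-low wells (horizontal axis, bars show the SE) for 15 higher and 14 lower genes named by rule at p1 (filled circles, 4 libraries) and for the same genes at e15.5 where they could be tested (open squares, 3 libraries). *Gabra2*, *Kcnip4* and *Cacng2* lie above 0 at both ages, while *Kitl* lies above 0 at p1 and below 0 at e15.5, where it was not called.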

How the data were processed

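The deposited values are raw UMI counts of every gene in every well, which the authors made with scruff. The submitters' processing notes name mm10 and GRCm38. Of 49671 Ensembl IDs, 49412 had a symbol in GENCODE M21. The members and gene lists were chosen with earlier results of these data known. Counts were summed per library and class (at least 3 wells of each) and given to the quasi-likelihood F test of edgeR (version 4.0.16) after filterByExpr and TMM scaling. This test reports no SE. The SE printed with an edgeR log2 fold change is its absolute value divided by the square root of the F statistic. For DESeq2 the SE is that of the tool. P-values were adjusted by Benjamini-Hochberg over every gene tested, with a threshold of 0.05. Both sums of a library come from 1 preparation, so the library was a block. Deviations of paired sums from their class means had r from 0.568 to 0.744, and those of other libraries a median r of -0.357 over 2000 genes. The deviations of a class sum to 0 over its 4 libraries. A positive r of paired sums therefore pushes the other r below 0, so the second value is no separate measure of pairing. On simulated p1 counts of 11403 genes the test recovered 71% of 2-fold and 97% of 4-fold changes, and 7.18% of its calls were unchanged genes. For e15.5 (10831 genes) these were 31%, 75% and 9.4%.

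A p1 library held 386517 to 8814472 UMIs and a median of 1409 to 79442 per well. Named by rule were, in each direction, the 15 genes of smallest p with the same direction in every library and at least 10 CPM in the higher class. To these came, from each list, every called member or otherwise the 2 of smallest p. Some of these genes are not reported here. Doublets were not called by a tool. Of the members, 0 held *Xist* and Y-linked UMIs together (at least 5 UMIs each). *Xist* was itself called lower in *Gabrg1*-high wells (log2 fold change -1.67), but not without S2 (-1.61, adjusted p = 0.43). Whether the classes differ in the sex of their cells was not tested. No wells had identical counts. Alternatives were other normalization, filters, thresholds, comparison wells, thinning, DESeq2 (version 1.42.0) and leaving out libraries. R (version 4.3.3), Python (version 3.11.15), pandas (version 2.3.3), SciPy (version 1.17.1) and Matplotlib (version 3.10.9) were used.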

Additional observations from a re-analysis of the deposited data

Results flagged for a closer look

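The share of *Gabrg1*-high wells in library S2, 56.3% of its proprioceptor wells, stood apart from the other 5 p1 libraries, whose shares ran from 0 to 13.6%. Among 91 genes with a ratio in all 4 libraries, 5 had a library that stood apart from the others, and chance flags about 1 in 20 such groups. In S5 the log2 ratio of *Gabrg1*-high to *Gabrg1*-low sums was 1.34 for *Mt1* and 1.66 for *Sema3d*. In S1 it was -0.70 for *Cbln2*, -1.38 for *Crtac1* and -2.92 for *Nr2f1*, against higher values in S2, S4 and S5. The change of *Kitl* differed between p1 and e15.5 by 2.22 and that of *Syt2* by 2.27 on the log2 scale, both past the threshold of the interaction test.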

How the results depend on the processing

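The p1 comparison gave 77 genes higher and 36 lower. Leaving out 1 library at a time gave 10 to 164 higher and 5 to 100 lower, with the lowest counts without S2 and the highest without S1. Of 45 named genes called at p1, 45 stayed called without S1, 10 without S2, 26 without S4 and 25 without S5. Without the library as a replicate block, that is without the pairing, 0 and 0 were called (551 at an unadjusted p under 0.05, against 897 with the block). DESeq2 gave 26 and 3, testing genes of low count too gave 120 and 93, a minimum of 5 wells a sum 235 and 144 (2 libraries), and a minimum of 1 well 103 and 73. Comparison wells with *Tox* below 20 CPM gave 51 and 35, those with no *Gabrg1* UMI 41 and 17, and those with *Tox* at or above 20 CPM 96 and 59. Some thresholds also removed libraries. Members at or above 100 CPM gave 151 and 89 (S2 and S5 alone), members with at least 2 UMIs 37 and 12 and wells of at least 20000 UMIs 30 and 4 (both without S4, whose loss alone gave 36 and 11). Wells thinned to 5000 UMIs gave 4 and 4 of 3339 tested. In these thinned wells *Lrp1b* (-0.0369) and *Tnni1* (0.023) changed sign, neither being called. No other of the 45 named genes called at p1 reversed under any setting. Genes that were not called could change sign. The log2 fold change of *Spp1*, a listed proprioceptor marker, was 0.43 in the main fit and -0.45 without S2. For the same gene it was 1.61 (adjusted p = 0.0229) against *Tox*-low wells and -0.46 against *Tox*-high wells. At e15.5, leaving out a library gave 13 to 173 higher and 14 to 126 lower, and *Tox*-low comparison wells 6 and 13. The age difference gave 1 and 0 without the replicate block, 11 and 7 without S2, and 14 and 0 with *Tox*-low comparison wells. The mitochondrial difference ran from -1.42 to 0.504 percentage points when a library was left out. The share in S2 was 39.4% with thinned wells and that in S6 0% with at least 20000 UMIs or at least 2 *Gabrg1* UMIs. The cause of these shifts was not tested.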

Other observations

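Among the 20 genes whose change differed between the ages were genes of other cells. *Hba-a1* and *Hba-a2*, the haemoglobin alpha genes of red blood cells, differed by -8.22 (adjusted p = 0.00925) and -6.66 (adjusted p = 0.0228). *Plxna4*, a semaphorin receptor subunit, had the smallest p, with a difference of 5.50 ± 0.79 (adjusted p = 0.00664). Its change was 1.09 at p1 (adjusted p = 0.178) and -4.37 at e15.5 (adjusted p = 0.0188). *Nfia*, a transcription factor gene, was at -0.17 at p1 (adjusted p = 0.896) and -2.65 at e15.5 (adjusted p = 0.0188). These genes were chosen after their values were seen.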
